A study of Mus musculus with 8 samples.

Results

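The genes *Notch1*, *Notch3*, *Nrarp*, *Hes1*, *Hes5*, *Hes6*, *Hes7*, *Hey1* and *Hey2* were followed through 8 RNA-seq libraries of mouse embryonic stem (ES) cells collected at day 1 of in vitro differentiation. These 9 genes were taken by name from the 48440 genes that each library lists, and 8 of them were among the 17049 genes with enough reads to be tested. *Hes5* was not. The names were chosen with the values of these same libraries known, so the levels and differences of the 9 genes are given as a description, without p-values. The cells derive from MK6, an ES line of the C57BL/6J strain. The study asks how loss of exon 6 of *Tbxt*, a T-box transcription factor of the primitive streak and mesoderm, and insertion of paired Alu elements into the gene act in these cells. For each of 4 genotypes, 2 libraries were sequenced. The group labelled WT is unedited. The group labelled Tbxt delE6/delE6 lacks exon 6 on both alleles and its libraries come from different clones. The group labelled Tbxt delE6/+ lacks exon 6 on 1 allele. The group labelled Tbxt Insert ASAY (insASAY in the following) carries the human AluSx1 in intron 5 and the human AluY in intron 6 on both alleles. Every edited line was grown from picked single clones. The exon was deleted in cells grown without feeders, whereas the Alu pair was inserted in cells grown on fibroblast feeders, with a drug-selected marker that was later removed. All cultures, wild type included, were differentiated without feeder cells in N2/B27 medium with the GSK3 inhibitor CHIR99021. The 2 samples of a group are described as biological replicates, but for the other 3 groups it is not said whether they came from separate clones. The p-values measure only the spread between these samples, estimated in 1 fit of all 8 libraries and so shared over the 4 genotypes. Where a group may rest on 1 clone, an effect of the edit cannot be told apart from one of the clone.

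Notch signalling passes between neighbouring cells. A Delta-like or Jagged ligand on one cell binds a Notch receptor on the next, the receptor is cleaved, and its intracellular domain enters the nucleus, where it joins the DNA-binding protein Rbpj and a Mastermind-like coactivator. *Hes* and *Hey* genes, which encode bHLH transcriptional repressors, are the best known targets of that complex, and *Nrarp* encodes a short protein that is induced by Notch and dampens it. In the presomitic mesoderm, where *Tbxt* acts, *Hes7* and *Hes1* are expressed in cycles as part of the segmentation clock, and in neural progenitors *Hes1* and *Hes5* hold back neuronal differentiation. *Hes6* differs from the other members in that its product is known to oppose *Hes1*.

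Between 24618587 and 28445952 reads per library fell on genes. Counts were scaled to CPM, the reads of a gene relative to all reads of its library, with edgeR's TMM factors, which ran from 0.975 to 1.03. The reads on *Tbxt* itself numbered 47 and 42 in wild type, 26 and 22 in delE6/delE6, 39 and 54 in delE6/+ and 30 and 29 in insASAY. A count per gene does not separate isoforms, so it does not check the genotype labels. All 10 listed markers of pluripotent ES cells were above a mean of 1 CPM, and their summed level was 787.0 to 796.5 CPM in wild type, 466.6 to 600.0 in delE6/delE6, 568.2 to 574.0 in delE6/+ and 610.9 to 616.5 in insASAY. Called lower than in wild type, by the thresholds given below, were 6 of the 10 in delE6/delE6, 7 in delE6/+ and 4 in insASAY. The shares of all tested genes were 6.59%, 6.89% and 9.85%. The only marker of this list called higher was *Sox2*, in delE6/+ (log2 fold change 0.72). Of 12 markers of the primitive streak and early mesoderm, 4 were above 1 CPM and *Cer1* had no read in any library, and of 10 markers of the presomitic mesoderm 3 were above 1 CPM. The streak markers summed to 21.5 to 22.3 CPM in wild type, 26.8 to 27.4 in delE6/delE6, 20.7 to 23.6 in insASAY and 14.3 to 17.2 in delE6/+, where both libraries lay below all others. Much of this sum is *Eomes*, with a mean of 14.0 CPM in wild type and 7.25 in delE6/+. By the thresholds given below, *Eomes* and *Wnt3* were lower in delE6/+ than in wild type, and *Fgf8* and *Foxa2* higher. The presomitic markers summed to 7.94 to 9.75 CPM in wild type, 6.38 to 6.96 in delE6/delE6, 8.53 to 9.26 in insASAY and 10.0 in both delE6/+ libraries, above all others. Within this list, by the same thresholds, *Cdx2* was higher in delE6/+ (mean 1.86 CPM against 0.222 in wild type). *Mesp2* was lower there (1.58 against 2.61). Of these marker sums, that of pluripotent cells was the highest in every library. In bulk RNA, fewer cells of a type and less RNA per cell cannot be told apart.

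A gene was called where edgeR's quasi-likelihood test gave an adjusted p under 0.05 over all tested genes and the log2 fold change was past 0.5 in size. Against wild type, 1 of the 8 tested genes (*Hes1*) was called higher and 0 lower in delE6/delE6 cells, where 6.12% of all tested genes were called higher and 6.59% lower. In delE6/+ cells 1 (*Hes1*) was called higher and 0 lower, beside 6.6% and 6.89% of all genes. In insASAY cells 3 (*Hes1*, *Hes6* and *Hey1*) were called higher and 0 lower, beside 11.5% and 9.85%. These 3 comparisons share the wild-type libraries. Of delE6/+ against delE6/delE6, 1 (*Hes1*) was called higher and 0 lower, beside 11.2% and 11% of all genes. Of insASAY against delE6/+, 1 (*Hes6*) was called higher and 1 (*Hes1*) lower, beside 14.6% and 13%. Of insASAY against delE6/delE6, 0 were called in either direction by edgeR or by DESeq2, beside 2.79% and 2.38% of all genes, and 1 of the 8 had an unadjusted p under 0.05 by edgeR. Without delE6/delE6 replicate 2, *Hes6* was called in that comparison, at 0.60 on the log2 scale. Since the genes were chosen on these libraries, nothing is read from these counts.

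**Figure D1:**
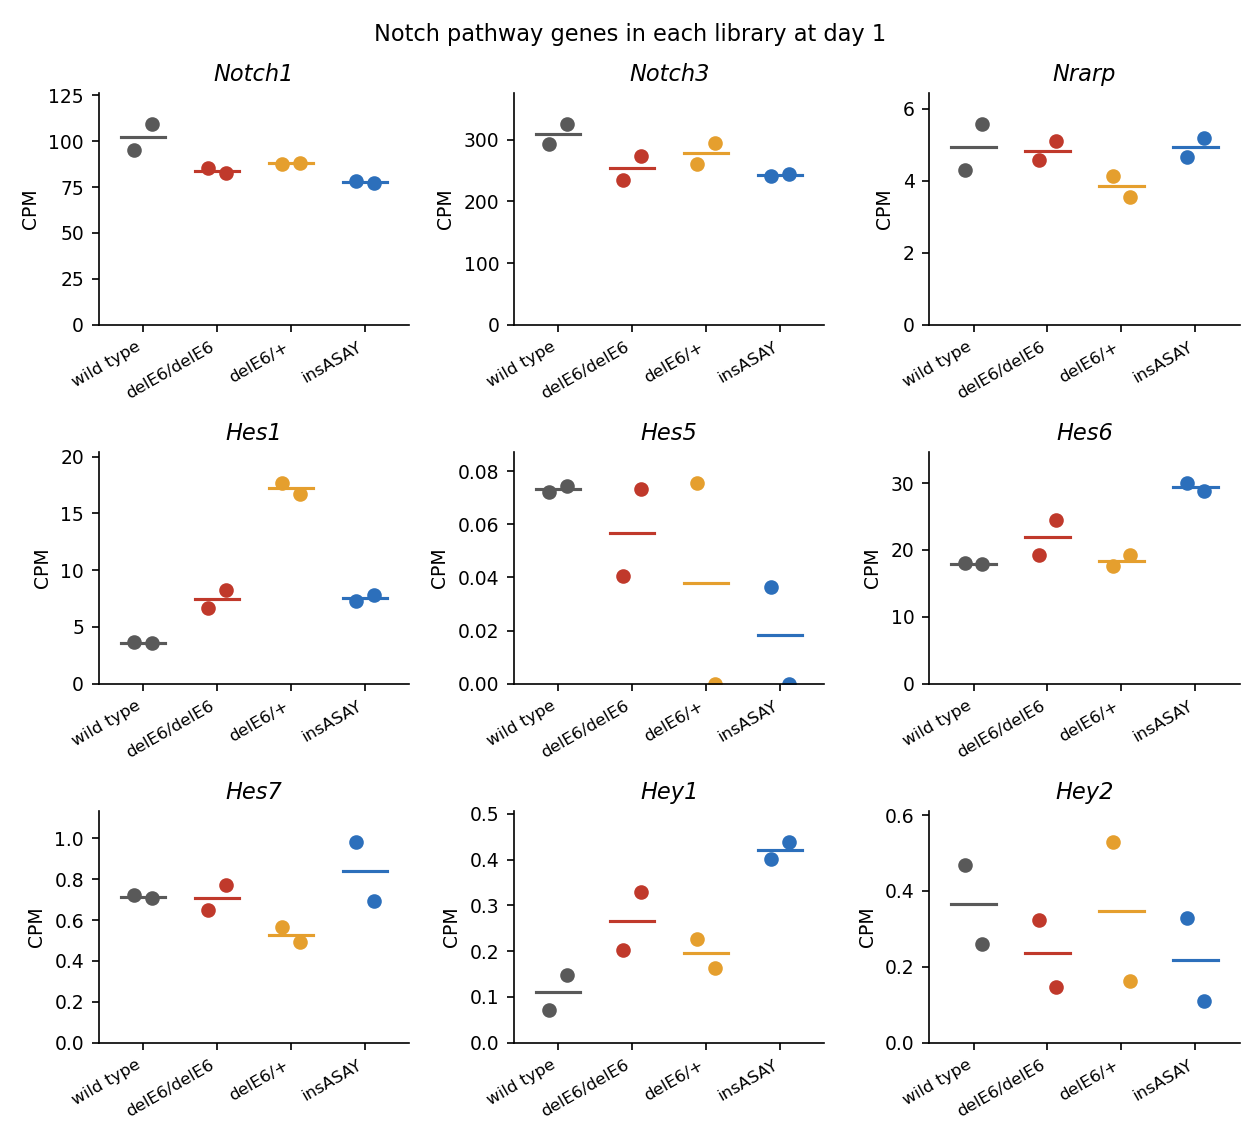
Level in CPM (vertical axis, from 0) of each of the 9 genes in every library, by genotype (horizontal axis). Points are libraries and bars the mean of 2. *Hes1* lies at 16.8 and 17.7 CPM in the delE6/+ libraries and at or below 8.29 CPM in the other 6, and *Hes6* at 28.8 and 30.1 CPM in the insASAY libraries and at or below 24.5 CPM elsewhere.

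Of the receptors, *Notch1* (chr2:26457903-26516663, minus strand) had 95.5 and 109.6 CPM in wild type, 85.2 and 82.6 in delE6/delE6, 87.8 and 88.1 in delE6/+ and 78.2 and 77.2 in insASAY. Both libraries of every edited group lay below both wild-type libraries, and no neighbouring genotypes in the order wild type, delE6/+, delE6/delE6, insASAY overlapped. Relative to wild type its log2 fold change was -0.29 in delE6/delE6, -0.22 in delE6/+ and -0.40 in insASAY, with standard errors of 0.0616, 0.0615 and 0.0616. Each is under the size of 0.5 that a call requires. Without WT replicate 2 the first 2 were -0.19 and -0.12. *Notch3* (chr17:32120820-32166852, minus strand) had 293.3 and 326.1 CPM in wild type, 234.7 and 273.9 in delE6/delE6, 261.1 and 295.4 in delE6/+ and 241.7 and 243.9 in insASAY. Its order of means was the same as that of *Notch1*, but here each genotype overlapped the next one in the order. Only delE6/delE6 and insASAY lay wholly below wild type, with log2 fold changes of -0.28 (standard error 0.0753) and -0.35 (0.0754), and the delE6/+ change was -0.15 (0.0752). The delE6/+ change ranged from -0.068 without delE6/+ replicate 1 to -0.25 without delE6/+ replicate 2 and was -0.076 without WT replicate 2, and that of delE6/delE6 was -0.17 without delE6/delE6 replicate 1.

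Levels of different genes were compared per kilobase of exon. *Notch3* had the highest of the 9 levels in every library, between 29.0 and 40.3 CPM per kb, and *Hes6* the second, between 9.72 and 16.6. *Notch1*, between 5.43 and 7.70 CPM per kb, came next in 6 libraries, and in the 2 delE6/+ libraries *Hes1* stood above it. Among the 4 Notch receptors, whose sum was 58.1 ± 3.91 CPM per kb in wild type (SD, n = 2), *Notch3* made up 65.9% ± 0.497 and *Notch1* 12.4% ± 0.371. In delE6/+ the shares were 57.2% ± 1.71 and 10.3% ± 0.568, with *Notch2* at 32.2% ± 1.24 against 21.5% ± 0.741 in wild type. The summed receptor level was 49.1 ± 3.35 CPM per kb in delE6/delE6, 60.1 ± 3.44 in delE6/+ and 47.3 ± 0.435 in insASAY. The delE6/+ sum thus overlapped that of wild type, although *Notch1* was lower there. *Notch4* was at most 0.509% of the sum in any library. Embryonic fibroblast markers, of which 5 of 10 were above 1 CPM, summed to 51.1 to 56.6 CPM in wild type, 40.1 to 41.9 in delE6/delE6, 58.6 to 61.3 in delE6/+ and 34.9 to 35.2 in insASAY. Their part in the receptor levels was not tested.

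*Nrarp* (chr2:25180758-25183339, plus strand) had 4.29 and 5.58 CPM in wild type, 4.57 and 5.10 in delE6/delE6, 4.66 and 5.20 in insASAY and 4.13 and 3.56 in delE6/+. The first 3 groups overlapped, and both delE6/+ libraries lay below all others. The log2 fold change was -0.36 (standard error 0.170) in delE6/+ and -0.03 (0.164) and -0.00 (0.163) in the other 2 lines. The delE6/+ change was -0.16 without WT replicate 2. The values of the other 2 lines changed sign with the wild-type library left out, at -0.20 and -0.18 without WT replicate 1 and 0.17 and 0.20 without WT replicate 2. *Nrarp* lies under the antisense gene *Gm38287* over 2559 bases, and its values need the strand: 987 reads over all libraries were counted on its own strand, and the count that disregards strand and drops reads shared by 2 genes kept 143 of them. *Gm38287* had 10 reads on its strand. With the count that disregards strand, the delE6/+ change was -0.06 and that of delE6/+ against delE6/delE6 turned from -0.33 to 0.13.

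*Hes1* (chr16:30064384-30067796, plus strand), the Notch effector shared by most tissues, had 3.68 and 3.57 CPM in wild type, 6.68 and 8.29 in delE6/delE6, 7.25 and 7.83 in insASAY and 17.7 and 16.8 in delE6/+. All 6 libraries of the edited lines lay above both wild-type libraries, the delE6/delE6 and insASAY libraries overlapped, and the delE6/+ libraries stood above both. In reads these were 102 and 96, 165 and 226, 199 and 214, and 468 and 410. The level was 2.07-fold that of wild type in delE6/delE6 (log2 fold change 1.05, standard error 0.142), 2.08-fold in insASAY (1.05, 0.141) and 4.75-fold in delE6/+ (2.25, 0.131). Between edited lines, delE6/+ was 2.30-fold above delE6/delE6 (log2 fold change 1.20, standard error 0.119), and insASAY differed from delE6/delE6 by 0.01 on the log2 scale (0.128). The cells with exon 6 deleted on 1 allele therefore had more *Hes1* RNA than those with it deleted on both. In the delE6/+ cells, 4 of 10 neural progenitor markers were also called higher against wild type, beside 6.6% of all tested genes. These were *Sox1*, *Pax6*, *Zic1* and *Pou3f2*. *Pou3f2* had 20 and 16 reads there and 2 to 9 in the other libraries. It passed the filter on low counts only through the delE6/+ libraries and so had to differ there. *Nes* was lower in delE6/+ (log2 fold change -0.43) but not called. Of the same 10 markers, 1 was called higher in delE6/delE6 cells (*Nes*, 0.81) and 0 in insASAY cells, beside 6.12% and 11.5% of all tested genes. *Sox1* had 6.32 and 5.36 CPM in wild type and 24.5 and 23.6 in delE6/+. The summed level of the 10 markers, most of it from *Nes*, was 107.7 to 109.7 CPM in wild type, 110.6 to 111.7 in delE6/+, 152.4 to 200.3 in delE6/delE6 and 121.3 to 131.8 in insASAY. The delE6/+ libraries also had the lowest streak and the highest presomitic marker sums, though calls within each of these lists went both ways, as given above. The part of neural, streak or presomitic cells in the *Hes1* level was not tested.

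*Hes6* (chr1:91411483-91414038, minus strand) had 18.0 and 17.9 CPM in wild type, 19.3 and 24.5 in delE6/delE6, 17.6 and 19.2 in delE6/+ and 30.1 and 28.8 in insASAY. The insASAY libraries lay above the other 6, the delE6/delE6 libraries lay between them and wild type, and delE6/+ overlapped wild type. The level in insASAY was 1.64-fold that of wild type (log2 fold change 0.71, standard error 0.102). It was 1.60-fold that of delE6/+ (0.68, 0.102) and 1.34-fold that of delE6/delE6 (0.43, 0.100), the last 0.26 without delE6/delE6 replicate 1 and 0.60 without replicate 2. The 2 delE6/delE6 clones differed from each other: the change against wild type was 0.29 (0.104) with both, 0.45 without replicate 1 and 0.11 without replicate 2. The lowest delE6/delE6 library was only 0.103 CPM above the highest delE6/+ library. *Hes6* thus overlapped wild type in delE6/+, the line with the highest *Hes1*.

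**Figure D2:**
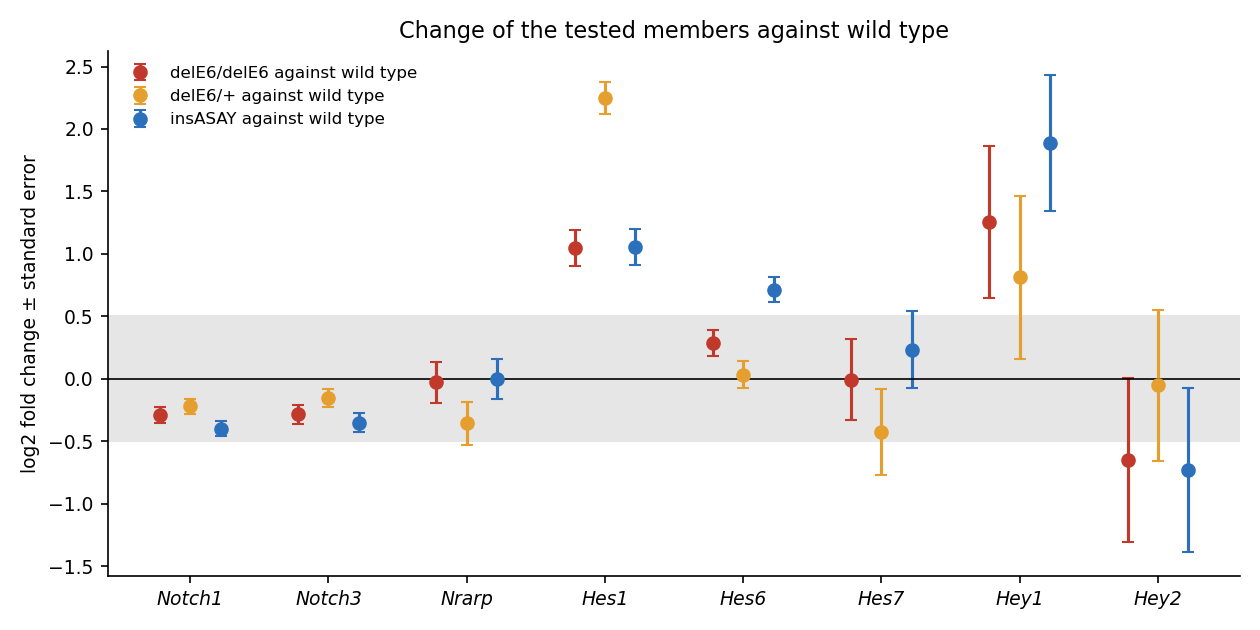
Log2 fold change against wild type (vertical axis) of the 8 tested genes in each edited line, from the edgeR fit of all 8 libraries. Points are fitted values, bars 1 standard error, and the grey band marks changes under 0.5 in size. *Hes1* lies at 1.05, 2.25 and 1.05, and the bars of *Hey1* and *Hey2*, which have few reads, are the widest.

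Per kilobase of exon, the 6 *Hes* and *Hey* genes summed to 12.3 ± 0.129 CPM per kb in wild type, 16.3 ± 2.64 in delE6/delE6, 19.1 ± 0.168 in delE6/+ and 20.6 ± 0.435 in insASAY (SD, n = 2). The composition of these sums differed. *Hes6* made up 80.9% ± 0.270 of the sum in wild type and *Hes1* 14.5% ± 0.155. In delE6/+ the shares were 53.3% ± 2.89 and 44.3% ± 2.14. In insASAY, with a sum of similar size, *Hes6* made up 78.4% and 79.4% of it and *Hes1* 17.0% and 18.9%, and in delE6/delE6 the shares were 74.0% ± 0.377 and 22.5% ± 0.215. Of the other 4 effectors, *Hes7* was the most abundant at 3.22% ± 0.0131 in wild type.

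**Figure D3:**
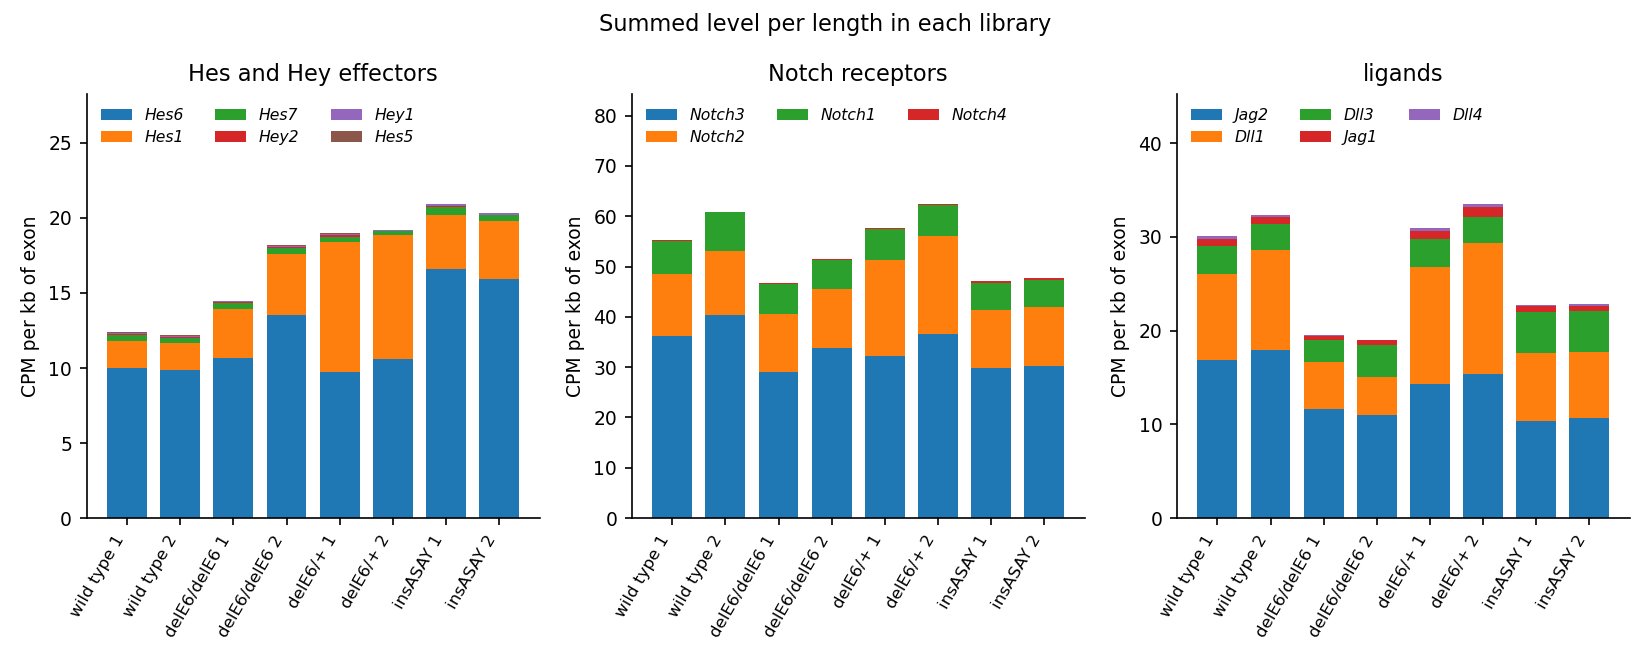
Level per length (CPM per kb of exon, vertical axis from 0) of the *Hes* and *Hey* genes, the 4 Notch receptors and the 5 ligands in every library (horizontal axis), stacked by gene. The *Hes* and *Hey* sum is 12.3 CPM per kb in wild type and 19.1 in delE6/+, where *Hes1* fills 44.3% of it, and the ligand sum is 19.3 in delE6/delE6 against 31.2 in wild type.

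The remaining effectors were near the limit of detection. *Hes7* (chr11:69120404-69124055, plus strand), the oscillating repressor of the segmentation clock, had 0.722 and 0.707 CPM in wild type, 0.648 and 0.770 in delE6/delE6, 0.984 and 0.695 in insASAY and 0.568 and 0.490 in delE6/+, from 12 to 27 reads per library. The delE6/+ libraries lay below the other 6 and the remaining groups overlapped. The ratio of delE6/+ to wild-type reads, scaled by library size, was 0.743 with an exact 95% interval of 0.437 to 1.24, which covers counting error only, so a difference was not detectable at this depth. *Hes7* shares 2186 bases with *9130213A22Rik* on the other strand. *Hey1* (chr3:8663359-8667256, minus strand), a target that is prominent in endothelium and somites, had 2 and 4 reads in wild type, 5 and 9 in delE6/delE6, 6 and 4 in delE6/+ and 11 and 12 in insASAY. In CPM these were 0.0722 and 0.149, 0.202 and 0.330, 0.227 and 0.163, and 0.401 and 0.439. The insASAY libraries lay above the other 6 and the wild-type libraries below them, and the delE6/delE6 and delE6/+ libraries overlapped. *Hey1* passed the filter on low counts only through the 2 insASAY libraries, so it had to differ there. The ratio of insASAY to wild type was 3.82, given without an interval because the gene passed the filter only through insASAY. The ratio of delE6/delE6 was 2.45 (0.885 to 7.78) and that of delE6/+ 1.79 (0.589 to 5.98), with intervals that cover counting error only. The *Hey1* call in insASAY was lost without WT replicate 1 and without insASAY replicate 2, and DESeq2 gave it no adjusted p. *Hey2* (chr10:30832359-30842801, minus strand), a repressor of the developing heart and vessels, had 13 and 7 reads in wild type, 8 and 4 in delE6/delE6, 14 and 4 in delE6/+ and 9 and 3 in insASAY. All groups overlapped, and in CPM the replicates of each group differed by more than any pair of group means. *Hes5* (chr4:154960923-154962371, plus strand), a main Notch target of neural progenitors, had 2 and 2 reads in wild type, 1 and 2 in delE6/delE6, 2 and 0 in delE6/+ and 1 and 0 in insASAY. A count of 0 allows up to 3 reads, or 0.123 CPM in the delE6/+ library and 0.110 CPM in the insASAY library, both above the 0.0722 and 0.0744 CPM of wild type.

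*Hes5*, *Hes7* and *Hey2* were also the members whose RefSeq promoter windows (GRCm38.p6, from 250 bases before to 50 after the annotated start) held the letters GTGGGAA, the core that Rbpj is known to bind, searched on both strands. The gene coordinates given elsewhere are those of GENCODE M21, and the RefSeq start lies further into the gene than the GENCODE start for *Hes7* and *Hey2*, so distances in the following count from the RefSeq start. The stretches around the 5 matches are shown because they belong to genes that had at most 27 reads in any library. Each is written 5′ to 3′ on the strand of the gene, with the matched letters in capitals (TTCCCAC where the match is on the other strand).
Hes5, chr4:154960686-154960714, plus strand, match starting 226 bases before the start: gggcgagcgcgTTCCCACagcccggacat
Hes5, chr4:154960829-154960857, plus strand, match starting 83 bases before the start: ggccgccgagtGTGGGAAcggccgcggcg
Hes7, chr11:69120262-69120290, plus strand, match starting 180 bases before the start: cctcccctcacTTCCCACatttggggcta
Hey2, chr10:30842973-30843001, minus strand, match starting 207 bases before the start: gcgcggtggcaTTCCCACgcctctgccaa
Hey2, chr10:30842770-30842798, minus strand, match starting 4 bases before the start: tgggctgcagcGTGGGAAagaacctccag
Windows were found for 7 of the 9 members, 3 of which held the letters, and for 27025 genes in all, of which 1958 (7.25%) did. The windows of *Hes6*, *Nrarp*, *Notch1* and *Notch3* did not hold these letters, and *Hes1* and *Hey1* were not searched. Of 57 other pathway genes with a window, 5 (8.77%) held them. The T-box letters AGGTGTGA, searched in the same way, were in the windows of 0 of 7 members and of 399 genes in all (1.48%). A match is a description of the letters and not a measured site.

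The position of each gene was set against its nearest tested genes, 10 on each side. *Hes1* in delE6/+ cells was above all 20 of its neighbours, whose median log2 fold change was 0.14 and whose highest was 1.36, and 1 of the 20 in delE6/delE6 and 2 in insASAY stood above it. *Hes6* in insASAY cells was above all 20 of its neighbours, with a median of 0.04 and a highest of 0.69. *Hey1*, tested only through its insASAY libraries, is not ranked there. It lies on chromosome 3, where the median over the 847 tested genes was 0.32 in delE6/+ against wild type, while the median of its own neighbours in that comparison was 0.08. *Nrarp*, lower in delE6/+ by 0.36, had neighbours with a median of -0.22 there, 13 of 20 of them above it. *Notch1* and *Notch3* were below 17 and 14 of their 20 neighbours in insASAY.

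**Figure D4:**
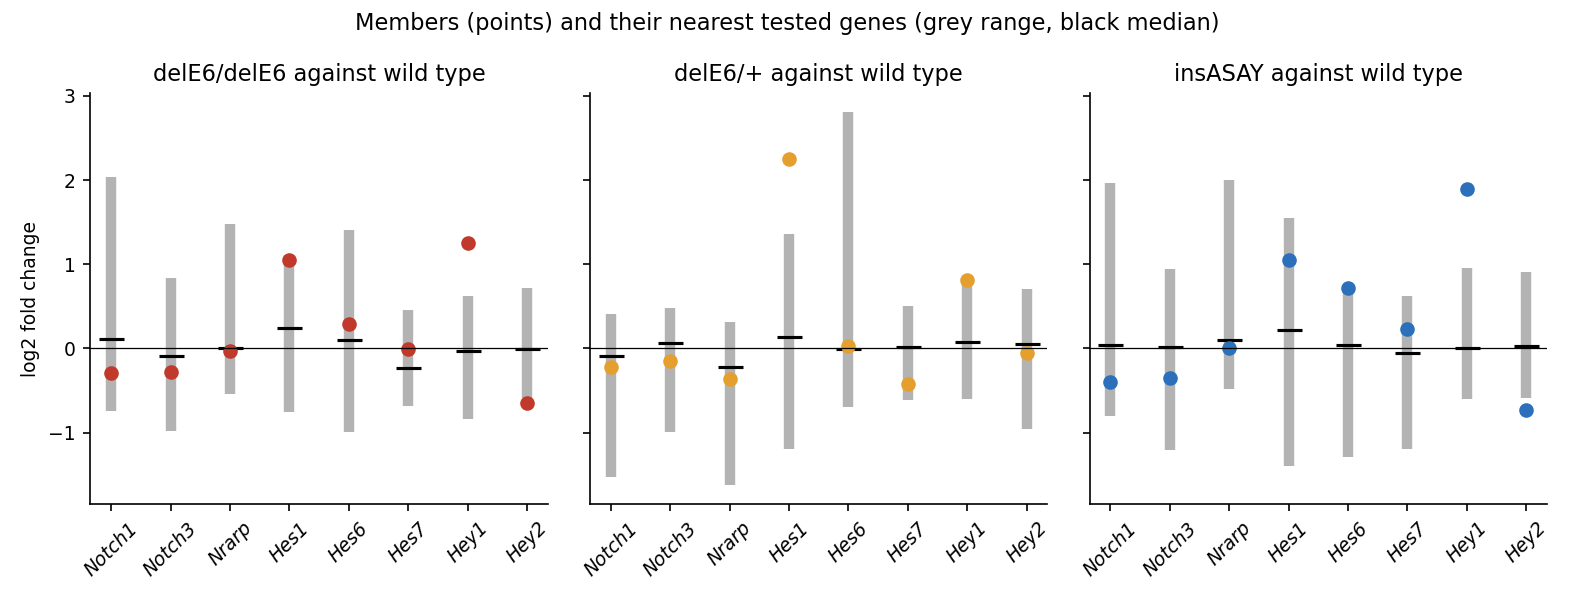
Log2 fold change against wild type (vertical axis) of each tested gene (point) and of its 20 nearest tested genes (19 for *Hey1*), with their range in grey and their median as a black bar, in 3 panels for the edited lines. *Hes1* in delE6/+ at 2.25 lies above its grey range. The height of *Hey1* in insASAY follows from the filter on low counts, which it passed only through those libraries.

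For each tested gene, the genes most like it were taken by Pearson's correlation of log2 CPM over the 8 libraries, among the 12836 or 12837 other genes whose mean reached 2 CPM. The 8 points are 4 pairs of replicates that share depth and scaling, so a high value is a description of these libraries and can rest on scatter between replicates as well as on the order of the genotypes. That holds above all for *Hey2*, whose groups overlapped at 3 to 14 reads, and the profile of *Hey1* was in part set by the filter, which it passed only through insASAY. *Hes1* was most like *Wars2* (r = 0.994) and *Extl2* (r = 0.992), both on chromosome 3, whose log2 fold changes in delE6/+ were 1.04 and 1.18. *Hes6* was most like *Hdhd5* and *Hnrnpdl* (both r = 0.994), and *Hey1* most like *Id3* (r = 0.983), a BMP-responsive inhibitor of bHLH factors, with a change of 2.60 in insASAY, and *Ccnd1* (r = 0.978). *Notch1* was most like *Pigt* and *Rpp21*, *Notch3* most like *Dnajb11* and *Col6a1*, *Nrarp* most like *Bdh1* and *1700022I11Rik*, *Hes7* most like *Nek3* and *Tle4*, and *Hey2* most like *Fos* and *Mrps25*, with r between 0.914 and 0.988.

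The members were then set beside 73 other genes of the pathway, listed by role, 67 of which were tested. Of these, 5 were called higher and 8 lower in delE6/delE6 against wild type, 6 higher and 4 lower in delE6/+, and 5 higher and 8 lower in insASAY. As shares of the 67 the calls in both directions were 19.4%, 14.9% and 19.4%. The calls include *Heyl* in insASAY and *Atoh1* in delE6/+, which passed the filter only through the libraries where they are high. The shares of all tested genes were 6.12% higher and 6.59% lower in delE6/delE6, 6.6% and 6.89% in delE6/+ and 11.5% and 9.85% in insASAY. The listed genes were near these shares in the last 2 lines. The lists were drawn up with earlier results of these data known, so no excess is read from the share in delE6/delE6. The median log2 fold changes of the listed genes were -0.00, 0.06 and -0.04, beside -0.01, -0.00 and -0.01 over all tested genes. The count in delE6/delE6 was 6 without WT replicate 2, 8 without WT replicate 1 and 4 without delE6/delE6 replicate 2. The shares of all genes under these omissions are not given, so these counts are not set against a background. Adjusted p-values in the following are from edgeR's quasi-likelihood test with Benjamini-Hochberg adjustment over all tested genes.

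Of the 5 ligands, 4 were called lower in delE6/delE6 and 1 higher in delE6/+. *Dll1*, *Dll4*, *Jag1* and *Jag2* activate Notch receptors on neighbouring cells. *Dll1* had 38.7 and 44.99 CPM in wild type, 21.4 and 17.3 in delE6/delE6, 52.9 and 59.1 in delE6/+ and 30.7 and 29.8 in insASAY. It fell in delE6/delE6 (log2 fold change -1.11, standard error 0.104, edgeR adjusted p = 2.91e-05), and in delE6/+ and insASAY its changes of 0.42 and -0.47 were under 0.5 in size. They passed it at 0.53 without WT replicate 2 in delE6/+, and at -0.57 without WT replicate 1 and -0.50 without insASAY replicate 1 in insASAY. *Jag2*, the most abundant ligand per length, fell in delE6/delE6 (-0.62, edgeR adjusted p = 2.51e-05) and in insASAY (-0.73, edgeR adjusted p = 2.27e-06). *Jag1* (-0.61, edgeR adjusted p = 0.0165) and *Dll4* (-1.31, edgeR adjusted p = 0.0132) were also called lower in delE6/delE6, though neither call held with DESeq2, where the adjusted p was 0.0615 and 0.0689, and both calls were lost without WT replicate 1. The *Jag1* call was lost without WT replicate 2 too, and the *Dll4* call without delE6/delE6 replicate 2. *Dll4*, with 9 to 43 reads per library, was called higher in delE6/+ (0.79, edgeR adjusted p = 0.04), a call that DESeq2 (adjusted p = 0.249), strand-blind counts, and the omission of WT replicate 2 or of either delE6/+ library did not keep. *Dll3*, a ligand that inhibits Notch within its own cell, rose in insASAY (0.59, edgeR adjusted p = 0.00542; 0.0536 without WT replicate 2) and its changes of -0.02 and -0.04 in the other 2 lines were not called. The summed ligand level was 31.2 ± 1.64 CPM per kb in wild type, 19.3 ± 0.357 in delE6/delE6, 32.3 ± 1.80 in delE6/+ and 22.8 ± 0.0758 in insASAY. *Hes1* was thus above wild type both in the line with the lowest ligand sum and in delE6/+, whose ligand sum overlapped wild type. The part of the ligands in the *Hes1* level was not tested.

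*Rbpj* was called lower in all 3 lines. It had 291.2 and 271.4 CPM in wild type, 220.1 and 157.3 in delE6/delE6, 170.3 and 165.8 in delE6/+ and 125.8 and 134.0 in insASAY. The log2 fold changes were -0.58 (edgeR adjusted p = 0.00147), -0.74 (0.000184) and -1.11 (8.21e-06), and the first was -0.35 without delE6/delE6 replicate 2. *Rbpj* RNA was thus lower in each line in which *Hes1* RNA was higher, but the lines did not rank alike. *Rbpj* was lowest in insASAY, whereas *Hes1* was highest in delE6/+. A link between the levels of these genes was not tested. Among the coactivators of Rbpj, *Maml3*, on chromosome 3, rose in delE6/+ from 7.16 to 24.1 CPM (log2 fold change 1.75, edgeR adjusted p = 5.15e-07), where its 20 neighbours had a median of 0.26. *Notch2*, also on chromosome 3, rose in delE6/+ from 134.3 to 208.2 CPM (0.63, edgeR adjusted p = 6.36e-07), beside a median of 0.51 over its neighbours. The part of the chromosome-wide shift in these values was not tested. *Maml2*, named after its values were seen, was called higher in all 3 lines, from a mean of 0.789 CPM in wild type to 1.51 in delE6/delE6, 2.60 in delE6/+ and 2.45 in insASAY, and the delE6/delE6 call was lost with DESeq2 and without either wild-type library or delE6/delE6 replicate 2. *Maml1* was called higher in delE6/delE6 at the size limit (0.50, edgeR adjusted p = 0.00123), a call lost with at least 10 counts in every library, with strand-blind counts, and without WT replicate 2 or delE6/delE6 replicate 2.

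**Figure D5:**
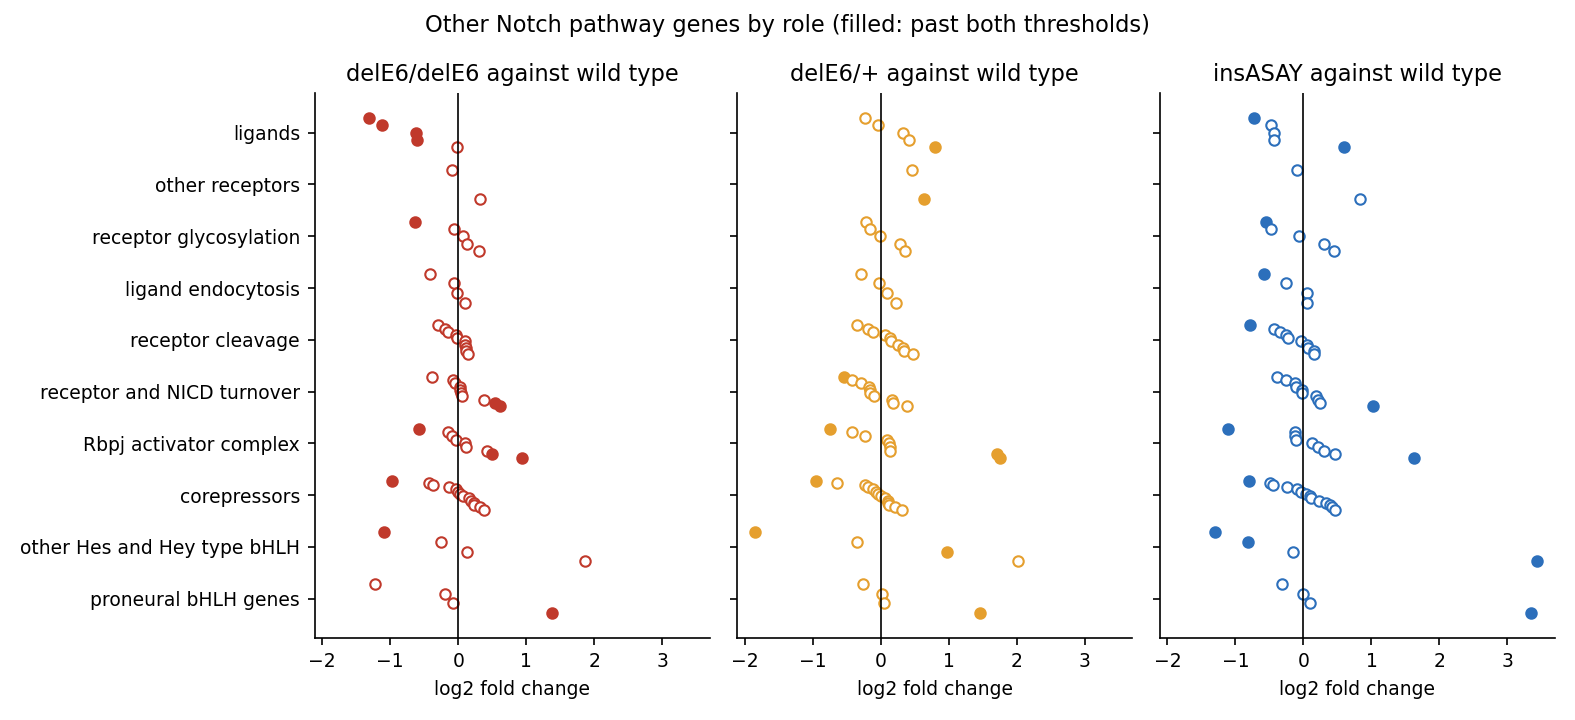
Log2 fold change against wild type (horizontal axis) of the 67 tested pathway genes outside the 9 members, by role (vertical axis), in 3 panels for the edited lines. Filled points passed both thresholds of the edgeR test. In delE6/delE6, 4 of 5 ligands are filled and lie left of 0, and in delE6/+ the ligand that is filled lies at 0.79.

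Among bHLH genes related to the members, *Bhlhe41*, a repressor of circadian and differentiation genes, had 40.6 and 37.2 CPM in wild type, 22.6 and 13.9 in delE6/delE6, 78.1 and 74.6 in delE6/+ and 15.7 and 16.0 in insASAY. It fell in delE6/delE6 (log2 fold change -1.10, edgeR adjusted p = 0.000213) and insASAY (-1.30, edgeR adjusted p = 2.30e-05) and rose in delE6/+ (0.97, edgeR adjusted p = 0.000119), whereas *Hes1* was higher in all 3. *Bhlhe40* fell in insASAY (-0.81, edgeR adjusted p = 2.20e-06). *Heyl*, the remaining *Hey* gene, is named after its values were seen: it had 3 and 0 reads in wild type, 4 and 7 in delE6/delE6, 5 and 7 in delE6/+ and 13 and 22 in insASAY, the same order of extremes as *Hey1*. Like *Hey1*, it passed the filter only through the 2 insASAY libraries and so had to differ there. *Hes2*, also named after its values were seen, had 9 and 11 reads in wild type, 5 and 11 in delE6/delE6, 9 and 9 in insASAY and 2 and 3 in delE6/+. Its call as lower in delE6/+, counted above, was lost without any 1 library of the 2 groups. Of 7 proneural genes that Hes proteins are known to repress, 4 were tested, and 1 was called higher in each line. *Neurog3* was that gene in delE6/delE6 and insASAY, with 1.08 and 0.707 CPM in wild type, 1.17 and 3.45 in delE6/delE6, 0.757 and 0.736 in delE6/+ and 9.44 and 8.97 in insASAY (log2 fold change 3.35 in insASAY, edgeR adjusted p = 1.04e-05). Its change in delE6/delE6 was 1.38 (edgeR adjusted p = 0.019) and 0.39 without delE6/delE6 replicate 2, and that call was also lost without either wild-type library, with DESeq2, with strand-blind counts and in a fit of the 2 groups. The insASAY libraries lay above the other 6, as they did for *Hes6*. *Atoh1*, named after its values were seen, was the gene counted in delE6/+, with 23 and 16 reads there and 3 to 8 in the other libraries. It passed the filter only through the delE6/+ libraries and so had to differ there, and its call was lost without WT replicate 2 and without delE6/+ replicate 1.

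The other roles held few calls. Of the glycosyltransferases that modify the receptors, *Mfng* fell in delE6/delE6 (-0.63, edgeR adjusted p = 0.00291) and insASAY (-0.56, edgeR adjusted p = 0.0034), the first lost without delE6/delE6 replicate 2 and the second without WT replicate 2 or insASAY replicate 2, and *Lfng* was not called against wild type (0.12, 0.35 and -0.47 in delE6/delE6, delE6/+ and insASAY), though without insASAY replicate 2 it was called there (-0.62, edgeR adjusted p = 0.0481). Of 10 genes of receptor turnover, *Dtx4* rose in delE6/delE6 (0.54, edgeR adjusted p = 0.00122; 0.44 without WT replicate 2 and 0.39 without delE6/delE6 replicate 2), *Dtx1* fell in delE6/+ (-0.54, edgeR adjusted p = 0.000624; -0.48 without WT replicate 2 and -0.46 without delE6/+ replicate 2) and *Dtx3l* rose in insASAY (1.03, edgeR adjusted p = 0.000937). *Dtx3l* was also called higher in delE6/delE6 (0.61, edgeR adjusted p = 0.0339), a call lost without either wild-type library, without delE6/delE6 replicate 2 (0.25) and in a fit of the 2 groups. *Mib2*, a ubiquitin ligase for ligands, fell in insASAY (-0.57, edgeR adjusted p = 0.000243). Of 10 genes of receptor cleavage 0 were called in delE6/delE6 or delE6/+ and 1 lower in insASAY, the gamma-secretase subunit gene *Aph1c* (-0.78, edgeR adjusted p = 0.00507), a call lost without WT replicate 2 (-0.51) or insASAY replicate 1. Of 14 corepressors 1 was called lower in each line, which in delE6/+ was *Aes* (-0.96, edgeR adjusted p = 9.59e-07), a Groucho-related gene. In the other 2 lines it was the Groucho gene *Tle2*. Its call in delE6/delE6 (-0.98, edgeR adjusted p = 0.0102) was lost without WT replicate 2 or delE6/delE6 replicate 2. That in insASAY (-0.81, edgeR adjusted p = 0.0171) was lost with DESeq2 (adjusted p = 0.0886) and without WT replicate 2 or insASAY replicate 2. *Aph1c* and *Tle2* are named after their values were seen. *Notch4*, with 18 to 53 reads per library, was not called against wild type (0.33, 0.46 and 0.83, edgeR adjusted p = 0.5, 0.343 and 0.0509). Its insASAY change was 1.47 and called without WT replicate 1 (edgeR adjusted p = 0.0142) and 0.40 without WT replicate 2.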

How the data were processed

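Poly(A) RNA was sequenced as directional libraries (NEBNext Ultra II Directional). The authors aligned reads to mm10 with STAR 2.7.2a, as in the study's methods and the submitters' processing notes (which also list DESeq2 1.40.2), and deposited counts per gene and library. The counts of the strand opposite to read 1 were used here, since 4.11% to 4.78% of reads on genes lay on the other strand. 1 wild-type table lacked the 4 summary lines of the others, which were left out everywhere. Of 48440 gene IDs, 48058 were paired with GENCODE M21 (GRCm38) for names, positions and exon lengths. The annotation release used for counting was not given in the sources used here, and the length of a gene is that of all its exons merged.

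Genes were kept by filterByExpr (minimum count 10, minimum total 15), which left 17049. All 8 libraries were fitted with edgeR 4.0.16 (R 4.3.3), TMM scaling and the quasi-likelihood test, in 6 comparisons, with Benjamini-Hochberg adjustment over all tested genes. Values per length are CPM divided by exon length, and correlations used log2 CPM with a prior count of 2. Intervals of read ratios are exact conditional binomial intervals. The fit was also run on simulated data, from which nothing is read here. Replicates of 1 group differed by more than sampling noise (chi-square per degree of freedom of 2.74 to 10.8, the highest in delE6/delE6).

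The 9 members and all gene lists were chosen with earlier results of these data known. Other pathway genes were named by rule: in each line against wild type up to 8 called genes, and between lines up to 4, with the smallest adjusted p, a mean of at least 2 CPM and no overlap of the groups, and always the ligands, *Notch2*, *Notch4*, *Rbpj* and *Lfng*. The list of differences between edited lines was widened to all called pathway genes after the data were seen. Alternatives were DESeq2 1.42.0, its size factors, other filters, strand-blind counts, a fit of 2 groups, a replicate block and leaving out each library. Promoter windows are from RefSeq (GRCm38.p6). *Hes1* and *Hey1* were not matched to a window. Tables and figures were made with Python 3.11.15, pandas 2.3.3, scipy 1.17.1 and matplotlib 3.10.9.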

Additional observations from a re-analysis of the deposited data

Results flagged for a closer look

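The differences below are between 2 edited lines, tested with edgeR's quasi-likelihood test and adjusted over all tested genes. They use the same edited libraries as the comparisons against wild type, 2 a group, and cover every pathway gene outside the members that was called in such a comparison. *Atoh1*, *Heyl* and *Hes2* are left out, because only 2 of their libraries reached 10 reads.

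Higher in delE6/+ than in delE6/delE6 were *Dll1* by 1.53 on the log2 scale (edgeR adjusted p = 2.01e-07), *Dll4* by 2.11 (0.000192), *Jag1* by 0.94 (0.00063) and *Bhlhe41* by 2.07 (2.73e-07). The same holds for *Tle3*, a Groucho corepressor that Hes proteins recruit, by 0.74 (edgeR adjusted p = 1.07e-07), *Maml2* by 0.77 (0.0141), and the chromosome 3 genes *Notch2* by 0.73 (1.33e-07) and *Maml3* by 1.63 (5.43e-07). Lower in delE6/+ were *Neurog3* at -1.65 (edgeR adjusted p = 0.00702), *Dtx3l* at -0.89 (0.00377), *Kat2b*, an acetyltransferase of the activator complex, at -0.84 (1.07e-06), *Aes* at -0.59 (3.22e-05) and *Spen*, a corepressor that binds Rbpj, at -0.52 (4.4e-05). The *Neurog3* call was lost without delE6/delE6 replicate 2 (-0.65), *Dtx3l* was -0.53 without that library and lost its call without delE6/+ replicate 2, as did *Spen* and *Maml2*, and *Maml2* also without delE6/delE6 replicate 1 and with DESeq2.

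Between insASAY and delE6/delE6, *Dll1* differed by 0.65 (edgeR adjusted p = 0.00135), *Dll3* by 0.61 (0.0146) and *Neurog3* by 1.97 (0.000674), each higher in insASAY. *Lfng* differed by -0.59 (edgeR adjusted p = 0.0345), *Rbpj* by -0.54 (0.00545) and *Bhlhe40* by -0.93 (3.13e-06), each lower in insASAY. Of these 6 calls, 4 were lost when 1 library was left out. *Dll1* was 0.49 without delE6/delE6 replicate 2, and *Rbpj* was -0.28 without delE6/delE6 replicate 1 and lost its call without insASAY replicate 1 (edgeR adjusted p = 0.0687). *Dll3* was 0.36 without delE6/delE6 replicate 1 and 0.93 without delE6/delE6 replicate 2, and lost its call without the first of these, without either insASAY library and in a fit of the 2 groups. *Lfng* lost its call without delE6/delE6 replicate 1, without either insASAY library, with DESeq2 and in a fit of the 2 groups. *Neurog3* was 2.96 without delE6/delE6 replicate 2.

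Higher in insASAY than in delE6/+ were *Neurog3* by 3.61 (edgeR adjusted p = 3.74e-06), *Dtx3l* by 1.31 (0.00015), *Kat2b* by 0.89 (5.83e-07), *Spen* by 0.65 (5.01e-06) and *Dll3* by 0.63 (0.00338). Lower in insASAY were *Dll1* at -0.89 (edgeR adjusted p = 8.86e-06), *Dll4* at -1.23 (0.00288), *Jag1* at -0.76 (0.00197), *Lfng* at -0.82 (0.0012), *Tle3* at -0.76 (8.3e-08) and *Bhlhe41* at -2.27 (1.35e-07). The presenilin gene *Psen2* at -0.67 (edgeR adjusted p = 7.3e-05), *Aph1c* at -0.59 (0.0243), *Notch2* at -0.73 (1.29e-07) and *Maml3* at -1.53 (6.89e-07) were also lower. The *Aph1c* call was lost with DESeq2 and without insASAY replicate 1 or either delE6/+ library. The 20 neighbours of *Notch2* differed by a median of -0.50 in this comparison.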

How the results depend on the processing

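*Hes1* kept its direction in all 5 comparisons where it was called, under 7 alternative settings and without each library. Its log2 fold changes ran from 0.88 to 1.19 in delE6/delE6, 2.21 to 2.29 in delE6/+ and 1.00 to 1.10 in insASAY. Those of *Hes6* in insASAY ran from 0.67 to 0.74. The ranges of members are a description, since these genes were chosen on the same libraries. *Hey1* in insASAY ranged from 1.47 to 2.47. Depth limits *Hes5*, *Hes7*, *Hey1* and *Hey2*, with at most 27 reads in a library. With strand-blind counts, *Hes7* moved from -0.01 to -0.60 in delE6/delE6 and from -0.43 to -0.77 in delE6/+. The number of other pathway genes called stayed within 1.5 times under every setting that kept all libraries (9 to 13 in delE6/delE6, 7 to 11 in delE6/+ and 11 to 14 in insASAY against wild type, 12 to 14, 4 to 9 and 14 to 18 for the between-line comparisons in the order given next). In insASAY against delE6/delE6, with 6 in the reported fit, the extremes were 4 in a fit of the 2 groups and 9 without a filter, both at the limit of 1.5 times. With DESeq2 it was 9, 7 and 11. Leaving out 1 library gave 4 to 14, 7 to 11 and 9 to 17 against wild type, 11 to 17 for delE6/+ against delE6/delE6 (14 with all libraries), 3 to 10 for insASAY against delE6/delE6 (6 with all) and 16 to 18 for insASAY against delE6/+ (18 with all). In insASAY against delE6/delE6 the extremes were 3 without delE6/delE6 replicate 1 or insASAY replicate 1 and 10 without delE6/delE6 replicate 2, and the cause was not tested. *Dll3*, not called in delE6/delE6 (-0.34 to 0.23 when a library was left out) or delE6/+ (-0.095 to 0.026), changed sign, to 0.037 and 0.026 without WT replicate 1, 0.23 without delE6/delE6 replicate 1 and 0.015 without delE6/+ replicate 2, as did *Notch4* in delE6/delE6 (-0.11 to 0.96), to -0.11 without WT replicate 2. *Notch4* in insASAY passed the threshold in 5 settings (adjusted p = 0.00612 without a filter) and without WT replicate 1 (1.47), and was 0.40 without WT replicate 2. Replicate numbers do not pair the samples (correlation of replicate differences between groups -0.1 to 0.0672), and with the replicate block the counts were 13, 10 and 13 against wild type and 14, 6 and 18 between lines, equal to those without it. Leaving out genes of chromosome 3, an alternative chosen after seeing the data, gave 8 in delE6/+ against wild type.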
